A study of Mus musculus with 2 samples.

Results

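The 8 genes described here encode enzymes of mitochondrial fatty acid beta-oxidation. They are Cpt1a and Cpt2 of the carnitine shuttle, the acyl-CoA dehydrogenase genes Acadvl, Acadl, Acadm and Acads, the hydroxyacyl-CoA dehydrogenase gene Hadh and the thiolase gene Acaa2. They were chosen by name from a list of 10 enzyme genes of the pathway, and 8 of the 10 were found among the 8551 genes of the expression table. Hadha and Hadhb, which encode the subunits of the mitochondrial trifunctional protein, were not analysed here.

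Long-chain fatty acids are activated to acyl-CoA esters, pass the inner mitochondrial membrane as carnitine esters and are then shortened in repeated cycles of dehydrogenation, hydration, a further dehydrogenation and thiolysis. The acyl-CoA dehydrogenases differ in the chain length they prefer, so that a long chain passes from one to the next as it shortens. In liver the acetyl-CoA produced enters the tricarboxylic acid cycle or is turned into ketone bodies, and the electrons reach the respiratory chain through NADH and the electron transfer flavoprotein. Many genes of the pathway are known targets of the nuclear receptor PPARα, which is active in fasting.

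Liver RNA was measured in wild type male mice on a C57BL/6 background, called normal, and in male mice on the same background with the genotype db/db (type 2 diabetic), called diabetic. All mice were adult, 9 weeks old, were fed chow freely, and were killed about 3 h into the light cycle. Each group had 1 library, so a difference between conditions has no replicate check, and every comparison below is between 2 libraries. The db/db mutation removes the signalling form of the leptin receptor in all cells, so it is not specific to liver. The study's methods give 12 mice per group without stating whether their RNA was pooled, and name 2 suppliers of animals without stating which group came from which.

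Expression was measured by digital gene expression, in which poly(A) RNA was copied to cDNA, cut with DpnII at GATC, and the short tags next to the cut were sequenced and counted per gene. Values are given in TPM, a scale on which tags were divided by the total of clean tags and not by gene length, so levels were compared between the libraries for each gene and not between genes. From the steps between the values, 1 read was worth 0.0973 TPM in normal and 0.074 TPM in diabetic liver, which corresponds to 10278530 and 13508232 clean tags. The genes of the table took 37.1% of these tags in normal liver and 44.4% in diabetic liver. Intervals below are 95% intervals from the read numbers of 1 library per group and cover counting error only. The reads carry no molecular identifiers, so they were not counted as separate molecules, and the intervals may be too narrow.

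To show the tags that such a library can hold for these genes, the DpnII site nearest the 3′ end of each transcript was located in the GRCm38 reference transcripts (GENCODE M21), and the 20 bases from that site are printed 5′ to 3′ with the site in capitals. The tag length was chosen here, and the tags that the authors counted for a gene are not listed in the expression table. The genes are named in the order in which a fatty acid meets the enzymes.
Cpt1a: GATCctggcagatacaccaa
Cpt2: GATCgggttggaaagctaac
Acadvl: GATCcgagaaaacatggcca
Acadl: GATCgtcagtgacagctaga
Acadm: GATCacttaaaatggaaaaa
Acads: GATCgctgggcatctgctcc
Hadh: GATCttaaccatcactgtcc
The sites of Cpt1a, Cpt2, Acadm and Hadh lie in the 3′ UTR, and those of Acadvl, Acadl, Acads and Acaa2 in the coding sequence. They lie 69 to 913 bases from the transcript end, the shortest distance in Cpt2 and the longest in Cpt1a. Each transcript holds 4 to 11 DpnII sites. The tag of Acaa2 was searched in the same way and is not printed. None of the 8 tags occurred anywhere in the reference transcripts of another gene among 55450 genes. At this site the genes were thus distinct from one another and from their paralogs. Tags at the other DpnII sites of these transcripts were not searched.

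The tissue label was checked against markers. Of 8 hepatocyte markers 6 were listed, and their summed level was 13848 TPM in normal and 14440.4 TPM in diabetic liver, 1.04-fold, with 1 of 6 at least 1.5-fold higher. Of 10 Kupffer cell markers 8 were listed, 1 was higher and 4 were lower, and the sum was 327 and 194 TPM, 0.593-fold. Sums for endothelial markers (7 of 7 listed) were 112 and 102 TPM, for stellate cell markers (5 of 6) 107 and 149 TPM and for cholangiocyte markers (2 of 4) 4.28 and 4.22 TPM. Of 6 adipose and muscle markers only Fabp4 was listed, at 8.56 and 26.6 TPM. The part of these differences in the values of the 8 enzymes was not tested, and in whole liver fewer cells of a type and less RNA per cell cannot be told apart.

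In TPM all 8 genes had higher values in the diabetic library, with the 95% interval of each log2 ratio above 0, whereas 5 of them had log2 ratios below 0 (4 with the interval below 0) when the libraries were scaled to the genes of the tricarboxylic acid cycle. Of the 8, 7 were at least 1.5-fold higher in the diabetic library, against 34.4% of all 8551 genes. The same 7 also had an FDR under 0.001 in a two-sided exact binomial test of the 2 libraries, against 22.9% of all genes. These shares are not alike, because the FDR depends on read number. In the normal library the 8 genes had 429 to 3971 reads, against a median of 71 over all genes. None of the 8 was at least 1.5-fold lower, against 15.3% of all genes, or 8.19% with the FDR. The median log2 ratio of the 8 genes was 0.75, and the median over all genes was 0.25, with quartiles of -0.30 and 0.81.

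The ratios fell into separate ranges. Acads, Acadm and Acadl, the dehydrogenase genes for short, medium and long chains, were 2.65-fold to 3.24-fold higher in the diabetic library. The other 5 genes, Hadh, Cpt2, Acadvl, Acaa2 and Cpt1a, were 1.36-fold to 1.70-fold higher. No gene of the 8 lay between these ranges.

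**Figure D1:**
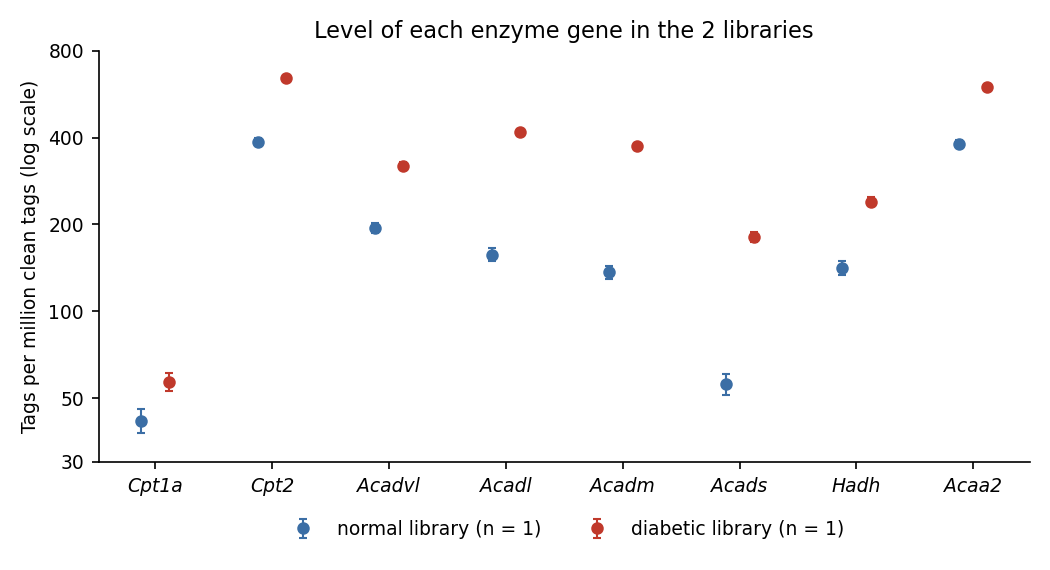
Level of each of the 8 enzyme genes in the normal (blue) and the diabetic (red) library, in TPM on a log axis, 1 library per group, with 95% counting intervals as bars. In TPM every gene is higher in the diabetic library, from 1.36-fold for Cpt1a to 3.24-fold for Acads.

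Cpt1a encodes the liver form of carnitine palmitoyltransferase at the outer mitochondrial membrane, the step at which entry of long chains is controlled. Its level was 41.7 TPM (429 reads) in normal liver and 56.9 TPM (769 reads) in diabetic liver. The ratio was 1.36-fold, a log2 ratio of 0.45 (95% interval 0.28 to 0.62), the lowest of the 8 and the only one under 1.5-fold. It was higher than the ratio of 59.6% of all listed genes. In the exact binomial test of the libraries the FDR of Cpt1a was 8.0e-07.

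Cpt2, the enzyme of the inner membrane that returns the chain to coenzyme A, was listed at 386 TPM (3971 reads) in normal liver and 643 TPM (8686 reads) in diabetic liver. The ratio was 1.66-fold, with a log2 ratio of 0.73 (0.68 to 0.79). The log2 ratio of Cpt2 was 0.29 (0.10 to 0.47) above that of Cpt1a, so the enzyme genes of the shuttle differed from each other beyond counting error.

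Acadvl encodes the very long chain acyl-CoA dehydrogenase, which is bound to the inner membrane. Its level was 194 TPM (1998 reads) in normal liver and 318 TPM (4302 reads) in diabetic liver, 1.64-fold higher, with a log2 ratio of 0.71 (0.64 to 0.79). Among the dehydrogenase genes it had the smallest ratio.

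Acadl, the long chain acyl-CoA dehydrogenase gene, was at 157 TPM (1616 reads) in normal liver and at 417 TPM (5634 reads) in diabetic liver, 2.65-fold higher. The log2 ratio was 1.41 (1.33 to 1.49), and 820 of the 8551 genes had a higher one. It was 0.70 (0.58 to 0.81) above the log2 ratio of Acadvl.

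The medium chain dehydrogenase gene Acadm, whose deficiency is among the most frequent inherited disorders of fatty acid oxidation in people, was close to Acadl. It was listed at 137 TPM (1406 reads) and 373 TPM (5035 reads), a ratio of 2.72-fold and a log2 ratio of 1.45 (1.36 to 1.53). The difference in log2 ratio between Acadm and Acadl was 0.04 (-0.08 to 0.16), and this interval includes 0.

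Acads encodes the short chain dehydrogenase, which acts on butyryl-CoA. It had 55.8 TPM (574 reads) in normal liver and 181 TPM (2447 reads) in diabetic liver, 3.24-fold higher. The log2 ratio of Acads, 1.70 (1.57 to 1.83), was the highest of the 8, above that of 94.2% of all genes and exceeded by 491 genes. It was 0.25 (0.09 to 0.41) above that of Acadm and 0.29 (0.14 to 0.45) above that of Acadl. By counting error alone, the log2 ratios of the dehydrogenase genes rose from Acadvl through Acadl and Acadm to Acads. This is the order of decreasing chain length, with Acadl and Acadm not apart from each other. With an assumed variation between samples of 20%, only 1 pair among the 8 enzyme genes remained apart, that of Acads and Cpt1a. No pair of dehydrogenase genes was then apart, so no step of their order was resolved.

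Hadh encodes the matrix enzyme that oxidises medium and short chain 3-hydroxyacyl-CoA. Its values were 141 TPM (1450 reads) and 239 TPM (3231 reads), 1.70-fold higher in the diabetic library, with a log2 ratio of 0.76 (0.67 to 0.85). Acaa2, a matrix thiolase that splits off acetyl-CoA, was at 381 TPM (3912 reads) in normal liver and 601 TPM (8112 reads) in diabetic liver, 1.58-fold higher, with a log2 ratio of 0.66 (0.60 to 0.71). Both lay near Cpt2 and Acadvl, and in the 6 pairs among these 4 genes every interval of the difference in log2 ratio included 0.

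**Figure D2:**
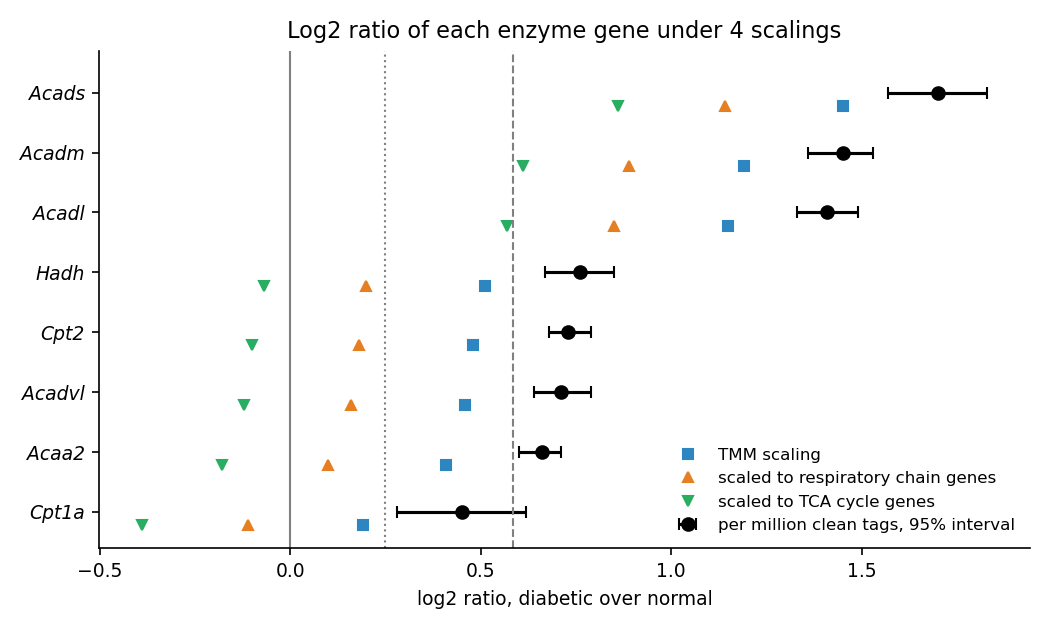
Log2 ratio of the diabetic to the normal library for each of the 8 genes (x axis) in TPM (black, with 95% counting intervals as bars), after TMM scaling (squares) and after scaling to the respiratory chain (upward triangles) or tricarboxylic acid cycle genes (downward triangles), with lines at 0 (solid), at the median of all genes, 0.25 (dotted), and at 1.5-fold (dashed). Acads, Acadm and Acadl lie apart from the other 5 genes, and those 5 lie below 0 when scaled to the cycle. A scaling moves every ratio by the same amount, so the distances between genes are the same under each.

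The difference in log2 ratio between any 2 of the 8 genes does not depend on how the libraries are scaled to each other. Of the 28 pairs, 21 had an interval that excluded 0, by counting error alone, with no adjustment over the pairs. The other 7 were the pair of Acadl and Acadm and the 6 pairs among Hadh, Cpt2, Acadvl and Acaa2. The smallest gap between the ranges of high and low ratios was that between Acadl and Hadh, 0.65 (0.52 to 0.77). The widest of all pairs was Acads against Cpt1a, 1.25 (1.03 to 1.47), while Acads against Acadvl gave 0.99 (0.83 to 1.14).

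**Figure D3:**
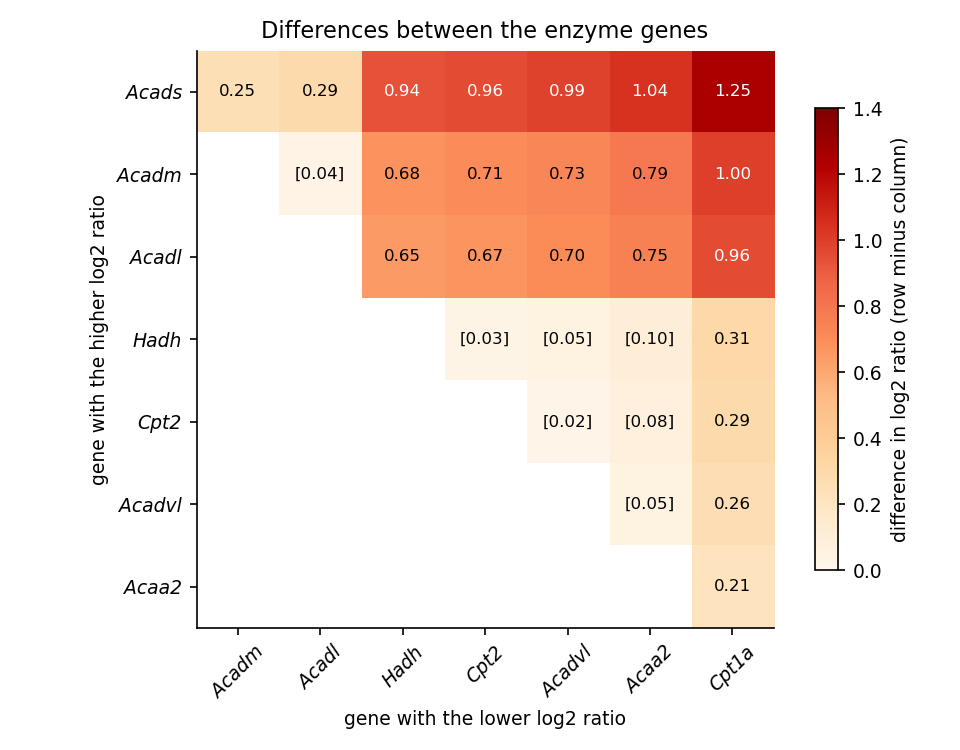
Difference in log2 ratio (row gene minus column gene, as colour and number) for the 28 pairs of the 8 genes, with brackets around the differences whose 95% counting interval includes 0. The bracketed values are those among Hadh, Cpt2, Acadvl and Acaa2 and the pair of Acadm and Acadl.

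These intervals leave out variation between mice, which 1 library per group cannot give. With an assumed variation between samples of 20%, the intervals of Acadl, Acadm and Acads stayed above 0 and those of the other 5 genes included 0. Only 1 of the 28 pairs, that of Acads and Cpt1a, remained apart. With 40%, the interval of Acads alone was above 0, from 0.15 to 3.24, and 0 pairs were apart.

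The count of 7 genes also depended on the scaling. Under each of the 4 scalings set by the genes themselves (the sum of the listed genes, TMM, median ratio and upper quartile), Acadl, Acadm and Acads were at least 1.5-fold higher and the other 5 were not, while all 8 log2 ratios stayed above 0. By median ratio the interval of Cpt1a included 0. These scalings lowered every log2 ratio by 0.25 to 0.31, and after TMM scaling the values were 1.15 for Acadl, 1.19 for Acadm and 1.45 for Acads, against 0.19 for Cpt1a and 0.51 for Hadh. Over the whole table, 2941 values in TPM passed 1.5-fold upward and 1310 downward, against 2054 and 2023 after TMM scaling.

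Together the 8 genes took 15356 reads, or 0.149% (Wilson interval 0.147 to 0.152) of all clean tags, in normal liver and 38216 reads, or 0.283% (0.28 to 0.286), in diabetic liver. This was 1.89-fold higher, with a log2 ratio of 0.92 (0.89 to 0.95). As a share of the reads of listed genes, the sum was 0.403% and 0.638%, 1.58-fold higher. The make-up of the sum also differed. Acads accounted for 3.74% of the reads of the 8 genes in normal liver and 6.4% in diabetic liver, Acadm for 9.16% and 13.2%, and Acadl for 10.5% and 14.7%. The shares of Cpt2 were 25.9% and 22.7% and those of Acaa2 25.5% and 21.2%, so each was lower in the diabetic library although its level was higher.

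The promoters of Acadl, Acadm and Acads are shown because these genes had the highest ratios. They are RefSeq sequences of GRCm38.p6, from 250 bases before to 50 after the gene start, printed 5′ to 3′ on the strand of the gene. Capitals mark AGGTCA, the half-site of nuclear receptors, or its reverse complement TGACCT.
Acadl: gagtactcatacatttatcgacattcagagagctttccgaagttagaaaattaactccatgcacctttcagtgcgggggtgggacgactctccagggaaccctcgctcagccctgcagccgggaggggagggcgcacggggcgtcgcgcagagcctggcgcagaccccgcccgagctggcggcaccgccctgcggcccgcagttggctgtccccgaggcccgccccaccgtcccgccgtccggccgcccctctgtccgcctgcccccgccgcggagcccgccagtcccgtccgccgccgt
Acadm: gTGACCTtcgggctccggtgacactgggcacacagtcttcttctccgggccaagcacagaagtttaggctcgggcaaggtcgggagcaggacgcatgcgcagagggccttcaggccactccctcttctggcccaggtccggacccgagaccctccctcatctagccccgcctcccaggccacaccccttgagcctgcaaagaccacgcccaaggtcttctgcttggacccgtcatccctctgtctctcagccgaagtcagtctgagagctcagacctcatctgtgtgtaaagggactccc
Acads: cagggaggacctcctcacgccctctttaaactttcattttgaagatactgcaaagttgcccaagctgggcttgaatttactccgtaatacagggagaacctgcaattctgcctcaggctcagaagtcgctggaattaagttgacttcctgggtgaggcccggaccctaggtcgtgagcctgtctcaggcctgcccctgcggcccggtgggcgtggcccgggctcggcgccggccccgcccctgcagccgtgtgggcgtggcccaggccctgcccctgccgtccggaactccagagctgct
They lie at chr1:66863260-66863559 (Acadl), chr3:153944594-153944893 (Acadm) and chr5:115119297-115119596 (Acads), all on the minus strand. The promoter of Acadl was 70.3% G or C with 34 CpG, that of Acadm 62.3% with 13 and that of Acads 62.7% with 17, against medians of 52.7% and 7 over 32851 promoters. Among genes with lower ratios, the promoter of Hadh was 63% with 17 CpG and that of Cpt1a 62.3% with 22. The promoter of Cpt2 was 57.3% with 17 CpG and that of Acadvl 50.7% with 9. These contents were thus not particular to the genes with the highest ratios. Of the 8 genes, 7 had a promoter in the table used. AGGTCA was searched on both strands and was in 3 of the 7, those of Acadm, Acadvl and Cpt1a, and in 16.3% of all promoters. The PPARα response element, AGGTCA repeated with 1 base between and up to 2 mismatches in 12 bases, was in 0 of 7 and in 3.86% of all promoters, and the extended half-site TCAAGGTCA, which contains AGGTCA, was in 0 of 7 and in 0.423%. A half-site was thus present in the window of Acadm and not in those of Acadl and Acads. These matches describe the letters of the windows only, and a link between them and the ratios was not tested.

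The neighbouring steps were described with gene lists written by function. Of 16 genes for carnitine transport and activation of fatty acids, 10 were listed, 4 were at least 1.5-fold higher and 0 lower, and their median log2 ratio was 0.54. The genes with the most reads were within 1.5-fold. Slc27a2, a fatty acid transport protein with acyl-CoA synthetase activity, had 533 TPM in normal and 773 TPM in diabetic liver, 1.45-fold, and Slc27a5, the bile acyl-CoA synthetase, was 528 and 478 TPM, 0.905-fold. The synthetase genes Acsl5 and Acsl1 were each 1.17-fold higher. Slc22a5, the plasma membrane carnitine transporter, had the highest ratio of the list, with 2.24 TPM (23 reads) and 16.7 TPM (226 reads), 7.47-fold, and a log2 ratio of 2.90 (2.28 to 3.59). The summed log2 ratio of the 8 enzymes was 0.55 (0.52 to 0.59) above that of this list. The sum of the list rested largely on Slc27a2 and Slc27a5, with 5475 and 5425 of its 15502 reads in normal liver. A difference without these genes was not computed.

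Electrons from the acyl-CoA dehydrogenases pass to the electron transfer flavoprotein and from it to ubiquinone through the enzyme encoded by Etfdh. Etfa, a subunit of the flavoprotein, had 257 TPM in normal and 331 TPM in diabetic liver, with a log2 ratio of 0.37. Etfdh was 197 and 589 TPM, 2.99-fold higher, with a log2 ratio of 1.58 (1.51 to 1.65). Etfdh thus had a ratio in the range of Acadl, Acadm and Acads, and Etfa had one under 1.5-fold.

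The auxiliary and hydratase genes had the highest median ratio of the lists around the pathway. All 6 were listed and passed 1.5-fold, and their median log2 ratio was 1.54. Echs1, the short chain enoyl-CoA hydratase of the spiral, had 59.7 TPM in normal and 196 TPM in diabetic liver, 3.29-fold higher. The isomerase genes listed as Dci and Peci, which allow unsaturated chains to pass, were 3.74-fold (18.9 and 70.6 TPM) and 1.84-fold (51.1 and 93.9 TPM) higher. The reductase gene Decr1 was 14.8 and 24.9 TPM, 1.69-fold higher, and Ech1, a dienoyl-CoA isomerase gene, was 121 and 371 TPM, 3.07-fold higher. Hsd17b10, which oxidises short branched 3-hydroxyacyl-CoA, was 55.9 and 155 TPM, 2.77-fold higher. The summed log2 ratio of the 8 enzymes was 0.58 below that of this list (difference -0.58, interval -0.65 to -0.52). Under the 4 scalings set by the genes, 4 to 5 of the 6 stayed at least 1.5-fold higher.

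The other acyl-CoA dehydrogenases share the fold and the electron acceptor of the 4 described above and act mostly on amino acid intermediates. Of 8 such genes 6 were listed, each of them past 1.5-fold in TPM and 5 of them after TMM scaling, and their median log2 ratio was 1.19. Ivd, which acts in leucine breakdown, was 48.7 and 115 TPM, 2.36-fold higher in the diabetic library. Acadsb of isoleucine breakdown was 11.9 and 31.8 TPM, 2.68-fold higher, Acad8 of valine breakdown was 4.38 and 8.37 TPM, 1.91-fold higher, and Gcdh of lysine breakdown was 218 and 353 TPM, 1.62-fold higher. Acad9, which also serves assembly of complex I, was 2.58-fold higher at 12.1 and 31.2 TPM, and Acad11 was 2.20-fold higher at 163 and 358 TPM. In log2 terms the 6 lay between 0.70 for Gcdh and 1.42 for Acadsb, and the 4 dehydrogenases of beta-oxidation between 0.71 for Acadvl and 1.70 for Acads.

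Propionyl-CoA from odd and branched chains is carboxylated and rearranged to succinyl-CoA. Pcca, Mcee and Mut were 2.89-fold, 2.78-fold and 1.65-fold higher in the diabetic library, with 40.6 and 117 TPM, 63.9 and 178 TPM, and 4.86 and 8 TPM. Mut had only 50 and 108 reads and a log2 ratio of 0.72 (0.22 to 1.23), without an FDR under 0.001. After TMM scaling 2 of the 4 genes of this list stayed at least 1.5-fold higher. Pccb, the partner subunit of Pcca, was 68.3 and 100.1 TPM, 1.47-fold. The pair that forms propionyl-CoA carboxylase thus differed in ratio, with log2 ratios of 1.53 and 0.55.

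Ketone bodies are made from the acetyl-CoA of the pathway, and all 4 genes asked for were listed, of which 2 were at least 1.5-fold higher. Acat1, the acetoacetyl-CoA thiolase, was 3.02 and 14.9 TPM, 4.95-fold higher in the diabetic library. Acat1 had only 31 and 202 reads, with a log2 ratio of 2.31 (1.76 to 2.90). Bdh1, which reduces acetoacetate, was 9.15 and 10.8 TPM, and its log2 ratio of 0.24 (-0.14 to 0.63) had an interval that includes 0.

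Of 16 regulators of the pathway, 9 were listed, 3 were at least 1.5-fold higher and 1 lower (2 and 2 after TMM scaling), and the median log2 ratio was -0.04. Ppara, the nuclear receptor gene, had 36.6 TPM in normal and 82.1 TPM in diabetic liver, 2.24-fold higher, with a log2 ratio of 1.17 (1.00 to 1.34). Sirt3, a mitochondrial deacetylase known to act on Acadl, was 225 and 375 TPM, 1.66-fold higher, and Med1, a coactivator subunit, was 3.11 and 13.6 TPM, 4.38-fold higher. Mlycd, which removes malonyl-CoA, the inhibitor of Cpt1a, was 87 and 72.8 TPM, a log2 ratio of -0.26, and Nr1h3, the liver X receptor α gene, was 88.4 and 86.2 TPM, a log2 ratio of -0.04. Prkaa1, a catalytic subunit of AMP-activated kinase, had the lowest ratio but only 15 and 10 reads, and its log2 ratio of -0.98 (-2.29 to 0.27) had an interval that includes 0.

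**Figure D4:**
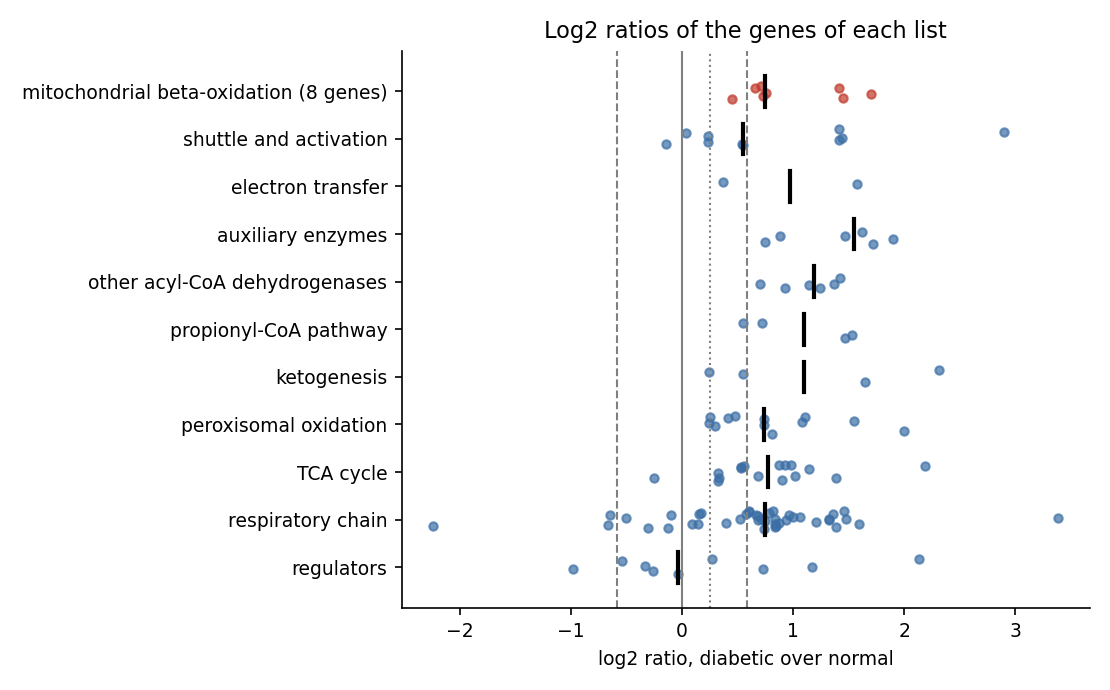
Log2 ratio of the diabetic to the normal library in TPM (x axis) for each listed gene (points) and the median (black bar) of the 8 enzyme genes (red) and of the lists around them (blue), with lines at 0 (solid), at the median of all genes, 0.25 (dotted), and at 1.5-fold in each direction (dashed). The auxiliary enzymes have a median of 1.54, and the medians of the 8 enzyme genes, the tricarboxylic acid cycle and the respiratory chain are 0.75, 0.78 and 0.75.

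Beta-oxidation was compared with its peroxisomal counterpart and with the pathways that receive its products. Of 15 genes of peroxisomal oxidation, 12 were listed, 7 were at least 1.5-fold higher (4 after TMM scaling) and 0 lower, and the median log2 ratio was 0.74. Ehhadh, the peroxisomal bifunctional enzyme, had 158 and 628 TPM, 3.99-fold. Pecr was 1.33-fold higher at 492 and 656 TPM, Crot, which makes carnitine esters for export, was 1.18-fold higher at 269 and 317 TPM, and Scp2, a thiolase and sterol carrier gene, was 1.19-fold higher at 2748 and 3258 TPM. The list summed was 1.44-fold higher, and the summed log2 ratio of the mitochondrial enzymes was 0.39 (0.36 to 0.42) above it. This difference rested largely on Scp2, which held 55.9% of the list's reads in normal liver and 45.9% in diabetic liver. Without Scp2 the list was 1.77-fold higher and the difference was 0.10 (0.06 to 0.13).

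Of 18 genes of the tricarboxylic acid cycle, 16 were listed, 9 were at least 1.5-fold higher (8 after TMM scaling) and 0 lower, and the median log2 ratio was 0.78. Sdha, a subunit of succinate dehydrogenase, was 188 and 415 TPM, 2.21-fold higher, whereas Sdhc, its membrane anchor, was 334 and 482 TPM, 1.45-fold. Fh1, fumarase, was 2.03-fold higher at 161 and 327 TPM, and Idh3b was 1.86-fold higher at 131 and 243 TPM. The highest ratio was that of Idh2, the NADP-dependent isocitrate dehydrogenase, 4.56-fold at 43.3 and 197 TPM. Summed, the cycle was 1.79-fold higher, and the 8 beta-oxidation enzymes were 0.08 (0.05 to 0.12) above it on the log2 scale. Without Sdhc, the gene with the most reads in this list, the cycle was 1.88-fold higher and the difference was 0.01 (-0.03 to 0.05).

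When the libraries were scaled to the cycle instead of to clean tags, Acadl, Acadm and Acads had log2 ratios of 0.57, 0.61 and 0.86. The other 5 then had ratios below 0, from -0.39 for Cpt1a to -0.07 for Hadh, with intervals below 0 for 4 of them, while the interval of Hadh included 0. The median of the 8 was -0.09 on this scale.

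Of 70 nuclear genes of the respiratory chain and ATP synthase, 42 were listed, 28 were at least 1.5-fold higher and 3 lower (17 and 4 after TMM scaling), and the median log2 ratio was 0.75. All 28 higher genes and 1 of the 3 lower genes also had an FDR under 0.001. Atp5a1 and Atp5e were each 1.79-fold higher, at 551 and 988 TPM and at 438 and 785 TPM. Cox7a2 was 1.12-fold higher at 1478 TPM in the normal library, and Atp5g3, at 518 and 774 TPM, was just under 1.5-fold. Among the genes with at least 10 reads in each library, Ndufs8 had the highest ratio, 3.01-fold at 2.53 and 7.62 TPM, and Ndufab1, which carries the acyl chain of mitochondrial fatty acid synthesis, the lowest, 0.629-fold at 6.23 and 3.92 TPM. Ndufab1 had 64 and 53 reads and a log2 ratio of -0.67 (-1.22 to -0.12), without an FDR under 0.001. The chain summed was 1.47-fold higher, and the beta-oxidation enzymes were 0.36 (0.34 to 0.39) above it. Without Cox7a2 the difference was 0.31 (0.28 to 0.34). Relative to the chain, Cpt1a had a log2 ratio of -0.11 and the other 7 genes had ratios above 0.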

How the data were processed

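The authors cut cDNA, made with random hexamers from liver poly(A) RNA, with DpnII, sequenced the tags, compared clean tags with RefSeq and deposited values per gene called TPM, which are RPM values (tags of a gene scaled to all clean tags, 2 decimals). The submitters' processing notes name mm9, and the aligner is not given in the sources used here. Genes without a tag in a library carry 0.01.

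Whole reads were recovered from the steps of the values, and 8513 of 8513 values in the normal and 8536 of 8537 in the diabetic library lay within 0.005 TPM, the rounding of the file, of a whole number of steps. The reads gave Clopper-Pearson intervals for ratios, Wilson intervals for shares and exact conditional intervals for pairs of genes. For the FDR, a two-sided exact binomial test was run on each gene, with Benjamini-Hochberg adjustment over 8551 genes, which compares libraries and not conditions. A gene was called at a fold of at least 1.5, to which the FDR under 0.001 was added where stated.

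The genes and lists were chosen with earlier results of these data known. Named in the text are the 8 enzyme genes, all genes of lists with at most 6 listed genes, and in longer lists the 4 with most reads and those with the highest and lowest ratio among genes with at least 10 reads in each library. Single values of some genes that this rule names are not reported here, and these genes enter only the counts, medians and sums of lists. Genes were matched to RefSeq by Entrez identifier, 8317 of 8551 in all and 8 of the 8 enzyme genes. Reference sequences are of another build than mm9 and were used for sequences only.

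Alternatives were 4 scalings set by the genes, scaling to the tricarboxylic acid cycle or respiratory chain list, pseudocounts of 0.1 and 1 TPM, a mean of at least 10 TPM, a fold of 2, the Audic-Claverie test and assumed variation of 20% and 40%. TMM scaling trimmed 30% of log ratios and 5% of mean abundances at each end. The computation was tested on simulated data. Scripts ran in Python 3.11.15 with pandas 2.3.3, numpy 2.4.6 and scipy 1.17.1, and figures were drawn with matplotlib 3.10.9.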

Additional observations from a re-analysis of the deposited data

How the results depend on the processing

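The count of enzyme genes at least 1.5-fold higher, 7 of 8 in TPM, was 3 under scaling to the summed values of listed genes, by TMM, by median ratio, by the upper quartile or to the respiratory chain, and 2 after scaling to the tricarboxylic acid cycle, with the same counts when the FDR was added, and it was 3 at a fold of 2. The median log2 ratio, 0.75, was 0.49, 0.50, 0.44 and 0.48 under the first 4 of these scalings, 0.19 relative to the respiratory chain and -0.09 relative to the cycle. Relative to the cycle the log2 ratios of Cpt1a, Cpt2, Acadvl, Hadh and Acaa2 were -0.39, -0.10, -0.12, -0.07 and -0.18, and relative to the chain that of Cpt1a was -0.11. By construction a scaling moves every ratio by the same amount. The number of genes with an interval above 0, 8 of 8, was 3 relative to the cycle, 3 with an assumed variation of 20% and 1 with 40%. Of all genes, 2941 were at least 1.5-fold higher, against 1873 by median ratio, 797 relative to the cycle, 1274 relative to the chain, 1285 once genes under a mean of 10 TPM were left out and 1589 at a fold of 2.

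Of the 28 pairs of enzyme genes, 21 were apart by counting error, 1 with 20% and 0 with 40% assumed variation. These settings for pairs, the share of listed reads (1.58-fold in place of 1.89-fold) and the sums without the gene with the most reads were chosen after seeing the data. Pseudocounts, the mean of 10 TPM and the Audic-Claverie test left the count at 7. No paired analysis was possible because each group has 1 library. Reads limit Cpt1a most, with 429 in the normal library, while variation between mice was not measured.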
